A study of Mus musculus with 10 samples.

Results

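The mRNAs described here are 10 of the protein-coding mRNAs of the mouse mitochondrial genome, taken by name from the 37947 gene symbols of the deposited table: mt-Nd1, mt-Nd2, mt-Nd4, mt-Nd5 and mt-Nd6 of complex I, mt-Cytb of complex III, mt-Co1, mt-Co2 and mt-Co3 of complex IV, and mt-Atp6 of complex V. The rule that lists them uses no measured value of the ages compared. Each had 1 row in the table, and all 10 were above 0 in every library and passed the filter on low values, a mean FPKM (sequenced fragments scaled to transcript length and library depth) of at least 1. The libraries were made from poly-A RNA of the gastrocnemius, a calf muscle of mostly fast fibers, of male C57BL/6 mice. Young mice were 6 months old and aged mice 24 months old, with 5 libraries in each group and 1 mouse for each library, and no transgene, deletion or drug was part of either group. The 8 myofiber markers were above 0 in every library, and their summed FPKM was 118724 to 143004 in young and 108237 to 141729 in aged muscle. RNA was taken from whole muscle, so fewer cells of a type and less RNA in each cell cannot be told apart.

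Mitochondrial DNA is a small circle present in many copies in a muscle fiber. It encodes the core membrane subunits of the respiratory chain, which pumps protons with complexes I, III and IV and makes ATP with complex V, while complex II and all the remaining subunits are encoded in the nucleus. Both strands are transcribed into long precursor RNAs by a dedicated polymerase, and excision of the tRNAs that lie between the genes releases the mRNAs. Most of the mRNAs then receive a short poly-A tail, which for several of them completes the stop codon, and poly-T beads capture RNA by such a tail. The mRNA of ND6 is known, from human cells, to lack a stable tail.

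The 3′ ends of the coding sequences are shown because the tail by which poly-T beads hold these mRNAs is added near them and, in some, completes the stop codon. The coordinates are those of the mitochondrial chromosome in GRCm38 (mm10), and the sequences are from the GENCODE M21 transcripts of that build. Of the 10 annotated coding sequences, 5 ended in TAA and 2, those of mt-Nd1 and mt-Nd2, in TAG. The last bases of both TAG codons lie in the tRNA gene that follows, mt-Ti from base 3706 and mt-Tw from base 4950. Whether a tail completes the stop codon of these 2 mRNAs as well, after tRNA excision, was not examined. The remaining 3, mt-Nd4 (chrM:11525-11544), mt-Co3 (chrM:9371-9390) and mt-Cytb (chrM:15269-15288), ended in a lone T that only an added tail turns into a stop codon. These 3 lie on the plus strand, as does mt-Co1 (chrM:6853-6872), which is shown for contrast. The last bases of each are given 5′ to 3′, with the stop codon or its encoded part in capitals.
mt-Nd4: aattacaggcctgacaataT
mt-Co3: catttattgatgaggatctT
mt-Cytb: aatactaaaattatatccaT
mt-Co1: cctatgtaaaagtaaaaTAA

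Of the 10 genes, mt-Nd6 alone lies on the minus strand, and it meets mt-Nd5 tail to tail. Their last 14 coding bases are the same stretch of DNA (chrM:13552-13565) read from opposite strands. They are shown because the library kit does not mark strand, so reads of one RNA that cover the stretch can be counted for either gene.
mt-Nd5, plus strand: ttaatctcgagtaa
mt-Nd6, minus strand: ttactcgagattaa
The mt-Nd5 mRNA is known to continue past its stop codon, antisense to mt-Nd6. The values of mt-Nd6 therefore cannot be told apart from those of the antisense RNA. On the plus strand, mt-Atp6 shares 43 bases with mt-Atp8 before it, mt-Nd4 shares 7 bases with mt-Nd4l, and mt-Co3 shares 1 base with mt-Atp6. In the first 2 of these pairs both reading frames are known to lie on 1 mRNA.

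The depths recovered from the deposited values were 19886361 to 34554354 reads, and each of the 10 mRNAs had between 51040 and 769192 reads in a library, so the counting error was at most 0.443% (0.01 on the log2 scale). Both libraries numbered 3, 1 young and 1 aged, stood apart. They listed 35024 and 29878 transcripts above 0, against 38855 to 43296 in the other 8. In these libraries long nuclear transcripts were low: over 5993 nuclear genes, the median deviation from the mean of all libraries was lower for transcripts of 4 kb and over than for those under 1 kb by 0.55 on the log2 scale in young library 3 and by 0.39 in aged library 3. In the other libraries the same difference was -0.09 to 0.38, with the highest in aged library 4. Results for the mitochondrial mRNAs are therefore given with all 10 libraries and without both libraries numbered 3.

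The mitochondrial mRNAs were among the most abundant RNAs of the muscle. Together they took 9.63, 7.27, 6.68, 8.91 and 10.9% of the mapped reads in young libraries 1 to 5. In aged libraries 1 to 5 they took 9.00, 8.10, 4.88, 8.87 and 9.13%. The lowest share was that of aged library 3 and the next lowest that of young library 3, and the 2 groups overlapped. The mean was 8.68 ± 1.72% in young and 8.00 ± 1.79% in aged muscle (SD, n = 5 each), and without both libraries numbered 3 it was 9.18 ± 1.51% and 8.77 ± 0.463% (SD, n = 4 each). The differences, -0.685 and -0.405 percentage points, were smaller than the SD of the young libraries, and no test was made on this sum.

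**Figure D1:**
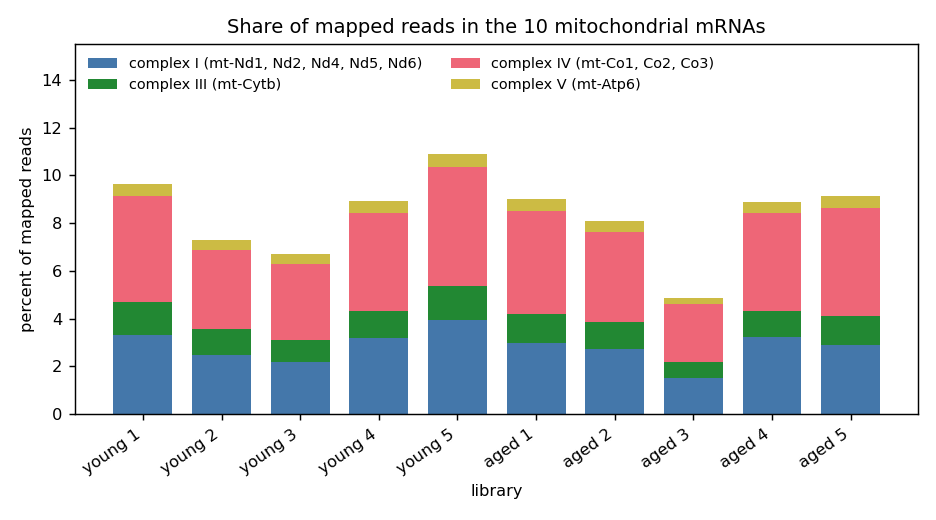
Percent of mapped reads in the 10 mitochondrial mRNAs in each library, stacked by respiratory chain complex, with the library on the x axis. Aged library 3 has the lowest share, 4.88%, and young library 5 the highest, 10.9%.

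Complex IV took the largest part of these reads, with 4.01 ± 0.757% of the mapped reads in young and 3.84 ± 0.819% in aged muscle (SD, n = 5 each). The 5 complex I mRNAs took 3.02 ± 0.706% and 2.67 ± 0.670%, mt-Cytb 1.18 ± 0.203% and 1.06 ± 0.236%, and mt-Atp6 0.475 ± 0.0690% and 0.430 ± 0.0965%. In the plot of the share by library, the order of the complexes was the same in every column.

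On the FPKM scale, which divides by transcript length, the levels of the 10 mRNAs spanned from mt-Co1 at a mean log2 FPKM of 13.99 over all libraries to mt-Nd5 at 11.63. Neighbors in the order of levels were compared within libraries with a two-sided exact sign-flip permutation test (n = 10 libraries), with p-values adjusted over the 9 comparisons. mt-Co1 was above mt-Co2 (13.32) by 0.67 ± 0.51 (SD), in 9 of 10 libraries, with an exact permutation p of 0.0105 after adjustment. mt-Co2 and mt-Cytb (13.23) did not differ beyond their spread, with an adjusted exact permutation p of 0.584, and mt-Co2 was the higher of them in only 2 libraries. mt-Cytb was above mt-Nd1 (12.96), and mt-Co3 (12.91) above mt-Atp6 (12.67), in 10 of 10 libraries, each with an adjusted exact permutation p of 0.00586. mt-Nd1 and mt-Co3 were within their spread of each other, with an adjusted exact permutation p of 0.108.

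In the lower part of the order, mt-Atp6 was above mt-Nd2 (12.37) in 10 of 10 libraries, with an adjusted exact permutation p of 0.00586. mt-Nd2 and mt-Nd6 (12.23) did not separate, with an adjusted exact permutation p of 0.442, and neither did mt-Nd4 (12.02) and mt-Nd5, with 0.108. mt-Nd6 was above mt-Nd4 in 9 libraries, with an adjusted exact permutation p of 0.0105. The complex I mRNAs thus held the lower end of the order with the exception of mt-Nd1, which lay among the complex IV and III mRNAs.

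**Figure D2:**
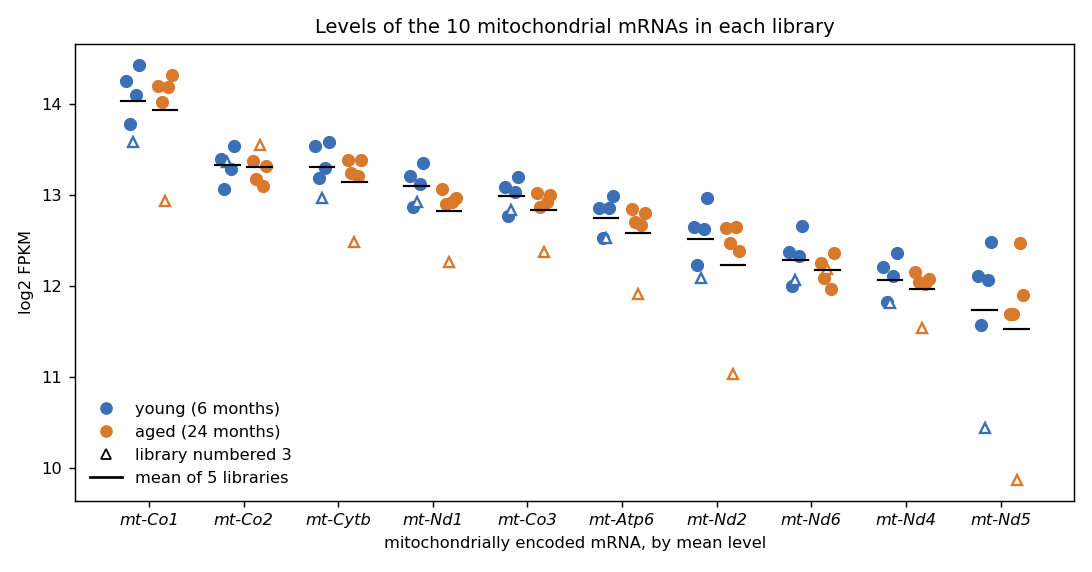
Level (log2 FPKM) of each mitochondrial mRNA in each library, with young libraries in blue, aged libraries in orange, both libraries numbered 3 as open triangles and group means as short lines. The orange triangle of aged library 3 lies lowest for 8 of the 10 mRNAs and highest for mt-Co2.

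Aged was compared with young muscle to see whether the mitochondrial mRNAs differ with age. No mitochondrial mRNA passed the test. All 10 had a lower mean log2 FPKM in aged muscle, by 0.03 to 0.28 with a median of -0.16, which is a level of 0.823 to 0.982 times the young one, although after quantile normalization of the libraries 7 of the 10 had a higher aged mean. The adjusted p of limma was 1.00 for each of the 10, and none had an unadjusted limma p under 0.05. Over all 38059 transcripts tested, 3 were higher in aged muscle at an adjusted p under 0.05 (0.00788%) and 0 were lower (0%). With the replicate number as a block no transcript passed in either direction. At an unadjusted limma p under 0.05, 1482 transcripts were higher (3.89%) and 281 lower (0.738%).

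A lower aged mean was not rare in the table. Of the 38059 transcripts 44.9% had a lower and 55.1% a higher aged mean, and of the 10169 genes taken with 1 transcript each 38.6% had a lower one, with a median difference of 0.07 over these genes. None of the 10 met the thresholds of the study, an unadjusted p and a change of 1 log2 unit, which 0.57% of transcripts met in the higher and 0.092% in the lower direction. For none of the 10 mRNAs did the groups separate, whereas 0.292% of transcripts had every aged library below every young one and 1.25% every aged library above. The 95% intervals of the differences reached from -1.34 at the lowest, for mt-Nd5, to 0.92 at the highest, also for mt-Nd5. These intervals include a difference of 0 for each mRNA, and for mt-Nd5 they also leave room for a level as low as 0.395 or as high as 1.89 times the young one. Without both libraries numbered 3 the interval of mt-Nd5 was narrower, from -0.65 to 0.41. With the replicate number as a block its SE was 0.19, against 0.51 in the main fit.

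**Figure D3:**
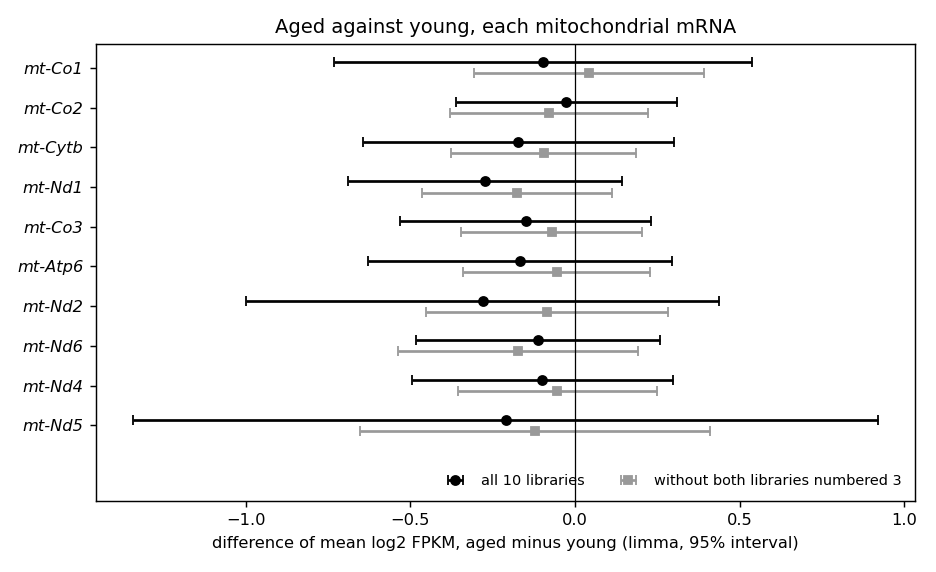
Difference of mean log2 FPKM, aged minus young, for each mitochondrial mRNA, with 95% intervals from limma, for all 10 libraries (black) and without both libraries numbered 3 (gray). Every interval crosses 0, and the black interval is widest for mt-Nd5.

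The complex I subunits encoded by mitochondrial DNA form its proton-pumping membrane arm. mt-Nd1, the subunit at the joint with the peripheral arm, had log2 FPKM of 13.21, 12.87, 12.92, 13.13 and 13.36 in young libraries 1 to 5. In aged libraries 1 to 5 it had 13.07, 12.90, 12.27, 12.92 and 12.97. Aged library 3 was below all others, and the other 4 aged libraries lay inside the young range. The difference was -0.27 (SE 0.19), with a two-sided exact permutation p of 0.127 and an aged value below the young one of the same number in 4 of 5 pairs. Without both libraries numbered 3 it was -0.18, with an exact permutation p of 0.171.

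mt-Nd2, a subunit of the same arm, had 12.65, 12.23, 12.09, 12.62 and 12.97 log2 FPKM in the young libraries. In the aged libraries it had 12.63, 12.47, 11.03, 12.65 and 12.39. Apart from aged library 3 the aged values lay within those of the young. Its difference of -0.28 (SE 0.32, exact permutation p 0.540) was the lowest of the 10, and it was -0.09 without both libraries numbered 3 and 0.02 without aged library 3 alone. mt-Nd4 spanned 11.82 to 12.37 in young and 11.54 to 12.16 in aged muscle, with a difference of -0.10 (SE 0.18, exact permutation p 0.540), and of -0.05 without both libraries numbered 3.

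mt-Nd5, whose protein is the distal proton-pumping subunit, varied most between libraries of 1 group. Its log2 FPKM was 12.11, 11.57, 10.43, 12.07 and 12.49 in the young libraries. It was 11.70, 11.69, 9.86, 12.47 and 11.90 in the aged ones. Both libraries numbered 3 were more than 1 log2 unit below every other library, and aged library 4 was almost level with the highest young library. The group means were 11.73 ± 0.80 and 11.52 ± 0.98 (SD, n = 5 each), which gives a difference of -0.21 (SE 0.51, exact permutation p 0.627). Without both libraries numbered 3 the difference was -0.12, and without aged library 3 alone it was 0.20.

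mt-Nd6, the complex I subunit read from the opposite strand, was not low in aged library 3, where it differed from the mean of the other aged libraries by 0.02, and differed by -0.27 in young library 3. Its log2 FPKM was 12.37, 12.00, 12.07, 12.33 and 12.66 in young libraries 1 to 5. In the aged libraries it was 12.26, 12.09, 12.19, 11.96 and 12.37. The lowest value was that of aged library 4, the library in which mt-Nd5 was highest among the aged. The difference was -0.11 (SE 0.17, exact permutation p 0.444), and -0.17 without both libraries numbered 3.

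mt-Cytb, cytochrome b, carries the quinone-binding sites of complex III. It spanned 12.96 to 13.58 log2 FPKM in young and 12.49 to 13.39 in aged muscle, with both lowest values in the libraries numbered 3. The difference was -0.17 (SE 0.21, exact permutation p 0.476), and -0.10 without both libraries numbered 3.

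The 3 complex IV mRNAs encode the catalytic core of cytochrome c oxidase. mt-Co1, the subunit that holds the oxygen-reducing center, had log2 FPKM of 14.26, 13.78, 13.59, 14.11 and 14.44 in the young libraries. In the aged libraries it had 14.20, 14.03, 12.93, 14.20 and 14.33. The aged values other than that of library 3 lay within those of the young, and the difference of -0.10 (SE 0.29, exact permutation p 0.778) became 0.04 without both libraries numbered 3.

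mt-Co2, the subunit that receives electrons from cytochrome c, was, with mt-Nd6, 1 of the 2 mRNAs that were not low in aged library 3. Its log2 FPKM was 13.39, 13.07, 13.37, 13.29 and 13.55 in the young libraries. It was 13.38, 13.18, 13.56, 13.11 and 13.32 in the aged ones. Here aged library 3 was the highest of all 10. The difference of -0.03 (SE 0.15, exact permutation p 0.849) was the closest to 0 with all 10 libraries. Without both libraries numbered 3 it was -0.08, and 4 of the other mRNAs were closer to 0. mt-Co3, the remaining core subunit, spanned 12.77 to 13.21 in young and 12.37 to 13.03 in aged muscle, with a difference of -0.15 (SE 0.17, exact permutation p 0.365), and of -0.07 without both libraries numbered 3.

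mt-Atp6, the subunit of complex V through which protons pass the membrane, spanned 12.53 to 12.99 log2 FPKM in young and 11.91 to 12.85 in aged muscle. The difference was -0.17 (SE 0.21, exact permutation p 0.468), and -0.06 without both libraries numbered 3.

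The common direction rested in part on 1 library. Aged library 3 was the lowest of all 10 for 8 of the 10 mRNAs, and young library 5 was the highest for 9. Being lowest in aged library 3 was frequent in the table as a whole, since it held for 3273 of 8216 genes above 0 in all libraries (39.8%). Without aged library 3, 5 of the 10 mRNAs had a lower and 5 a higher aged mean, from -0.13 to 0.20 with a median of 0.00 after rounding, and the median difference of all transcripts tested then moved from 0.03 to 0.18. Without both libraries numbered 3, 9 of the 10 had a lower aged mean, from -0.18 to 0.04 with a median of -0.08, and mt-Co1 had a higher one.

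Same-numbered young and aged libraries were also compared directly. The aged library was lower than its young partner for 10 of the 10 mRNAs in pairs 1 and 5, for 8 in pair 3, for 7 in pair 4 and for 0 in pair 2. The exact sign-flip permutation p of the 10 mRNAs over the pairs was between 0.125 and 0.75, where 5 pairs allow none below 0.0625. With the replicate number as a block the adjusted limma p was 0.677 to 0.963.

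Most of the 10 mRNAs varied together from library to library, with the exceptions of mt-Co2 and mt-Nd6. Over the 45 pairs of mRNAs the median Pearson r of log2 FPKM was 0.90 and the lowest -0.34 (n = 10 libraries). The r with the other mRNAs had a median of -0.14 for mt-Co2 and 0.51 for mt-Nd6. Without both libraries numbered 3 the 45 values ran from 0.38 to 0.97, with a median of 0.88 (n = 8). These correlations share the depth, the scaling and the RNA of each library and are given as a description only.

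The departure of the libraries numbered 3 was graded by mRNA. Aged library 3 differed from the mean of the other aged libraries by -2.07 for mt-Nd5 to 0.31 for mt-Co2, with a median of -0.76. Young library 3 differed from the other young libraries by -1.63 for mt-Nd5 to 0.04 for mt-Co2, with a median of -0.30. In both libraries the longest of the 10, mt-Nd5 with 1824 bases of coding sequence, was lowest, and mt-Co2 with 684 bases was highest. Across the 10 mRNAs the departure had a Pearson r with length of -0.78 in young and -0.76 in aged library 3, and a Spearman rho of -0.77 and -0.60. The relation did not extend to the shortest mitochondrial mRNAs, mt-Atp8 with 204 and mt-Nd4l with 297 bases. Aged library 3 departed by -2.80 and -2.20 for them, and young library 3 by -1.24 and -1.78. This is a correlation across genes, which are not independent replicates, and long nuclear transcripts were low in the same 2 libraries.

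Neighboring genes at different distances from the 3′ end of 1 RNA were therefore set side by side. In this comparison mt-Atp8 lies upstream of mt-Atp6 and mt-Nd4l upstream of mt-Nd4, mt-Nd6 lies across from the RNA downstream of mt-Nd5, and the tRNA gene mt-Ts1, on the minus strand, lies across from the RNA downstream of mt-Co1. mt-Atp8, the other mitochondrially encoded subunit of complex V, minus mt-Atp6 was 0.51, 0.49, -0.43, 0.47 and 0.63 in the young libraries on the log2 scale. In the aged libraries it was 0.37, 0.48, -1.40, 0.90 and 0.45. The upstream gene was the higher in 8 libraries and the lower in both libraries numbered 3.

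mt-Nd4l, a small membrane subunit of complex I, minus mt-Nd4 was -0.34, -0.43, -1.69, -0.14 and 0.00 in the young libraries. In the aged libraries it was -0.48, -0.43, -1.93, 0.26 and -0.42. The lowest values again belonged to the libraries numbered 3, and aged library 4 was the highest. mt-Nd5 minus mt-Nd6 was -0.26, -0.43, -1.63, -0.26 and -0.17 in the young and -0.56, -0.40, -2.33, 0.51 and -0.47 in the aged libraries, and mt-Co1 minus mt-Ts1 was 1.98, 1.88, 0.66, 2.05 and 2.22 in the young and 1.75, 1.94, -1.23, 2.53 and 1.93 in the aged ones. In all 4 pairs both libraries numbered 3 were the lowest and aged library 4 was the highest. Aged and young did not differ in any pair, with exact permutation p of 0.738, 0.810, 0.802 and 0.738 in the order given (n = 5 each), and without both libraries numbered 3 of 0.971, 0.800, 0.971 and 0.971 (n = 4 each).

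**Figure D4:**
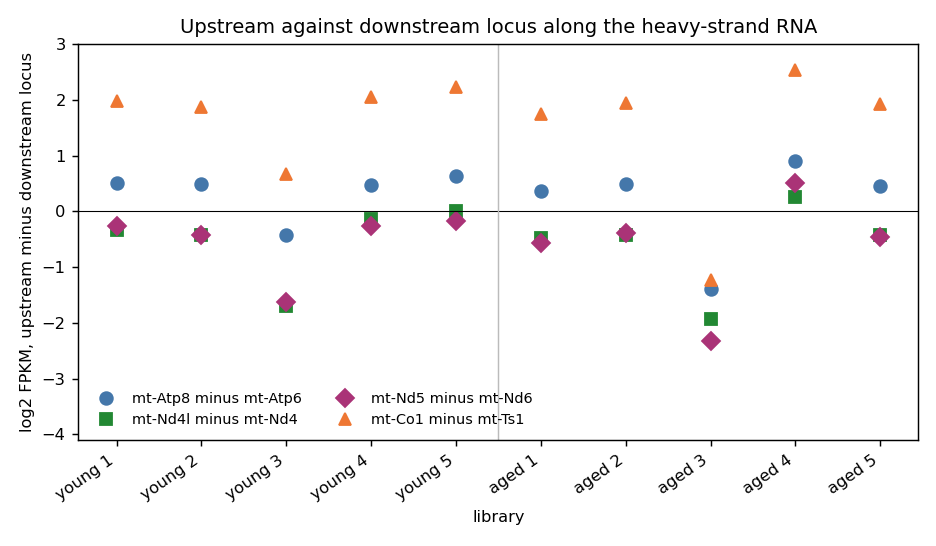
Difference in log2 FPKM between an upstream and a downstream mitochondrial locus in each library, for 4 pairs of loci, with the library on the x axis and 0 as the horizontal line. Young library 3 and aged library 3 are the lowest in each pair, and aged library 4 the highest.

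The other 3 mitochondrial mRNAs of the table are those of mt-Nd3, mt-Nd4l and mt-Atp8. mt-Nd3, another membrane subunit of complex I, had 11.47, 11.15, 11.48, 11.56 and 11.58 log2 FPKM in the young libraries. In the aged libraries it had 11.32, 11.12, 10.86, 11.05 and 11.08. The groups overlapped only through young library 2, which lay below aged library 1. The difference was -0.36 (SE 0.15, n = 5 each), with an exact permutation p of 0.0159 before any adjustment, and the adjusted limma p over all transcripts was 1.00. It was lower in the aged library of 5 of 5 pairs, and without both libraries numbered 3 the difference was -0.30 with an exact permutation p of 0.0571 (n = 4 each).

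mt-Atp8 differed by -0.34 (SE 0.56) and mt-Nd4l by -0.17 (SE 0.54), each with an exact permutation p of 0.698, and without aged library 3 both had a higher aged mean. The rRNAs of the mitochondrial ribosome, mt-Rnr1 and mt-Rnr2, carry only short tails and took 0.0787 to 0.190% of the mapped reads, with the highest share in aged library 3. mt-Rnr1 differed by 0.33 (SE 0.24, exact permutation p 0.238) and mt-Rnr2 by 0.15 (SE 0.20, exact permutation p 0.476), with a higher aged mean. Without aged library 3 these differences were 0.18 and 0.02.

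Of the 22 mitochondrial tRNA genes, 19 had a higher and 3 a lower aged mean, with a median of 0.27, beside 61.4% of all genes with a higher one. Some had few reads in a library, with 4 to 14 for mt-Tf and 8 to 26 for mt-Tv. For several, such as mt-Ti, mt-Tq and mt-Tw, young library 2 was the lowest and aged library 3 the highest of all 10. Without both libraries numbered 3, mt-Tv, mt-Tg and mt-Tt also had a lower aged mean, at -0.06, -0.01 and -0.15. None of the 22 had an unadjusted limma p under 0.05, beside 3.89% of transcripts higher and 0.738% lower. With the replicate number as a block 2 did, mt-Tp at -0.54 with an unadjusted limma p of 0.0371 and mt-Tl1 at -0.65 with 0.0487. In that fit 6.78% of transcripts were higher and 1.4% lower at that threshold. Both tRNA genes were lower in the aged library of 5 of 5 pairs, and neither passed after adjustment (limma p 0.594 and 0.608). Aged library 3 differed from the mean of the other aged libraries by -1.82 for mt-Tp and -2.32 for mt-Tl1. Without both libraries numbered 3 their differences were -0.33 and -0.36, with exact permutation p of 0.114 and 0.2. Only mt-Ts1 and mt-Te, both on the minus strand, had levels like those of the mRNAs, with mean log2 FPKM of 12.28 and 12.40 in young and 12.56 and 12.22 in aged muscle. The other 20 tRNA genes had means of 2.40 to 9.80 over all libraries, with a median of 6.81. mt-Te lies next to mt-Nd6, across from the RNA between mt-Nd5 and mt-Cytb, and as for mt-Nd6 the strand of its reads was not kept.

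Nuclear copies of mitochondrial DNA can share reads with these mRNAs. When the coding sequences were aligned to the nuclear transcripts of GENCODE, mt-Atp6, mt-Co2 and mt-Co3 each matched a nuclear pseudogene with 100% identity over nearly their whole length, over 678, 681 and 783 bases, and mt-Nd4 matched one over 876 of its 1378 bases. None of these 4 pseudogenes, Gm10925, Gm28661, Gm28437 and Gm28439, has a row in the table, so how their reads were counted is uncertain. mt-Nd1 had no such match, and the listed copies of mt-Cytb, mt-Nd5 and mt-Nd6 were at 0 in all 10 libraries.

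Of the nuclear copies with values, Gm13340 and Gm10222 tracked their mitochondrial partner and Gm13341 did not, while Gm13339, a copy of part of mt-Nd2, had a Pearson r of 0.41 with it over 10 libraries. Gm13340, 97.6% identical to mt-Co1 over its whole length, lay 35.3-fold below it and had a Pearson r of 1.00 with it over 10 libraries, after rounding. Gm10222, identical to mt-Nd4l over 294 bases, had the level of mt-Nd4l itself, with a ratio of 0.997. Gm13341, 95.9% identical to mt-Co2, lay 7.79-fold below it and had a Pearson r of -0.19 with it. In aged library 3, where mt-Co2 was highest, Gm13341 was lowest, at 9.32 log2 FPKM against 10.42 to 10.59 in the other aged libraries. The values of these 3 copies and of their mitochondrial partners are uncertain to the extent that reads were shared.

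Among 8179 nuclear genes above 0 in all libraries, those most like the mean of the 10 mRNAs were ranked by Pearson r over the 10 libraries. Gm13341 (0.98) and Gm13340 (0.97) came first, followed by Dlat (0.96) and Pdha1 (0.94) of the pyruvate dehydrogenase complex, the methyltransferase gene N6amt1 (0.95) and the complex I core subunit Ndufs1 (0.95). Over the 8 libraries without both numbered 3 the r values were 0.96 for Gm13341, 0.88 for Gm13340, 0.80 for Dlat, 0.82 for Pdha1, 0.74 for N6amt1 and 0.73 for Ndufs1. All of these genes were lowest in aged library 3, and the libraries share their depth and RNA between genes.

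The nuclear subunits of the same complexes were then described beside the mitochondrial ones. Of 83 nuclear subunits tested, none passed an adjusted p under 0.05 and none an unadjusted one, by limma, beside 6.77% of all genes higher and 0.983% lower at an unadjusted p under 0.05, while with the replicate number as a block 2 were higher at an unadjusted p under 0.05, beside 6.78% of transcripts in that fit. In all, 57 had a higher and 26 a lower aged mean, where 61.4% of all genes had a higher one, with a median of 0.08, beside 0.07 over all genes, and without both libraries numbered 3 the median was -0.03. By complex, the median difference was 0.04 for the 37 nuclear subunits of complex I and -0.04 for the 4 of complex II, which has no mitochondrially encoded subunit. It was 0.09 for the 9 of complex III, 0.12 for the 15 of complex IV and 0.09 for the 18 of complex V. Without both libraries numbered 3 these 5 medians were -0.040, -0.003, 0.006, 0.007 and -0.012.

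None of the nuclear subunits with the largest differences passed the test, with an adjusted limma p of 1.00 for each. In complex I, Ndufa3 and Ndufa2, both accessory subunits, differed by 0.34 (SE 0.40) and 0.33 (SE 0.38), and the core subunits Ndufv1 and Ndufs1, which carry the NADH and iron-sulfur sites, by -0.38 (SE 0.29) and -0.14 (SE 0.28). In complex II, the flavoprotein Sdha differed by -0.71 (SE 0.87), with 3.89 log2 FPKM in aged library 3 against 8.54 to 8.73 in the other aged libraries. Sdhc differed by -0.11 (SE 0.17), Sdhb by 0.10 (SE 0.20) and Sdhd by 0.02 (SE 0.20). In complex III, Uqcrh differed by 0.30 (SE 0.32), Uqcr10 by 0.12 (SE 0.20) and cytochrome c1 (Cyc1) and Uqcrc1 by -0.11 (SE 0.18) each.

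In complex IV, Cox8a and Cox6a1, the isoforms that are not specific to muscle, differed by 0.67 (SE 0.32) and 0.47 (SE 0.41), and the muscle isoform Cox7a1 and Cox7b by -0.12 (SE 0.24) and -0.10 (SE 0.30). In complex V, the inhibitor Atpif1 differed by 0.38 (SE 0.33), Atp5l by 0.34 (SE 0.27), Atp5j by -0.22 (SE 0.21) and Atp5c1 by -0.18 (SE 0.27). In the libraries numbered 3 the nuclear subunits as a set were high, where most of the mitochondrial mRNAs were low. The median log2 FPKM of 82 of them was 8.59 in young library 3 against 8.00 to 8.21 in the other young libraries, and 8.87 in aged library 3 against 7.83 to 8.26 in the other aged ones. Ndufa3, for example, had 8.73 log2 FPKM in young library 3 and 10.03 in aged library 3, above every other library of its group.

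The balance of both genomes was followed as the median log2 FPKM of the 10 mitochondrial mRNAs minus that of 82 nuclear subunits. It was 4.77, 4.65, 4.09, 4.84 and 5.04 in the young libraries. It was 4.67, 4.60, 3.36, 4.97 and 4.84 in the aged ones. Again the libraries numbered 3 were lowest in their groups, with a low mitochondrial and a high nuclear median in aged library 3. The group means were 4.68 ± 0.36 and 4.49 ± 0.65 (SD, n = 5 each), a difference of -0.19 that was smaller than either SD, and no test was made on this score.

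**Figure D5:**
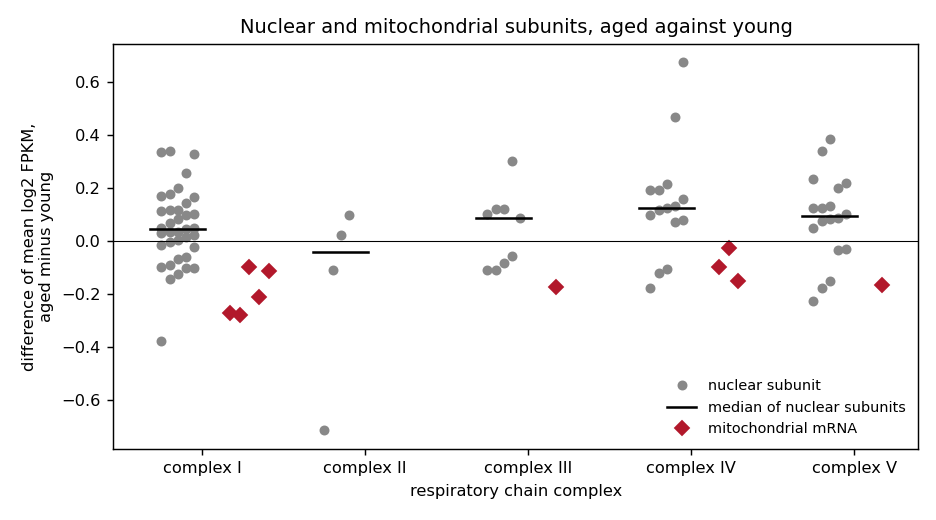
Log2 difference, aged minus young, of the mitochondrial mRNAs and of the nuclear subunits of each respiratory chain complex, with 1 gray point for each nuclear subunit, 1 red diamond for each mitochondrial mRNA and a line at the median of the nuclear subunits. The 10 diamonds lie between -0.28 and -0.03, and the nuclear subunits lie on both sides of 0.

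The nuclear genes that transcribe, process and translate the mitochondrial mRNAs gave no calls either. None of the 17 genes of mitochondrial DNA transcription and replication passed an unadjusted limma p under 0.05, beside 6.77% of all genes higher and 0.983% lower, and their median difference was 0.02. The mitochondrial RNA polymerase Polrmt differed by -0.01 (SE 0.26), the packaging and transcription factor Tfam by -0.06 (SE 0.20), the initiation factor Tfb2m by 0.05 (SE 0.19) and the elongation factor Tefm by -0.30 (SE 0.22). Tefm and the nuclease Mgme1 (-0.35, SE 0.23) had the lowest differences of this list among genes above 0 in all libraries, and Mterfd1 (0.36, SE 0.23) and Lig3 (0.20, SE 0.16) the highest.

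Of 23 genes of mitochondrial RNA processing and stability none had an unadjusted p under 0.05, beside the same shares of all genes, with a median of 0.04. Lrpprc and Slirp, which together bind and stabilize the mRNAs, differed by -0.07 (SE 0.15) and 0.18 (SE 0.15). Taco1, the translational activator of mt-Co1, differed by -0.51 (SE 0.36), the RNA helicase Supv3l1 by -0.31 (SE 0.19) and Ptcd1 by 0.24 (SE 0.19). The 75 mitochondrial ribosomal proteins had a median of 0.01, with Mrpl41 at 0.45 (SE 0.25), Mrps35 at 0.35 (SE 0.34), Mrpl45 at -0.40 (SE 0.40) and Mrpl19 at -0.33 (SE 0.26).

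Of 39 assembly factors of the respiratory chain, with a median of -0.03, 1 was lower at an unadjusted limma p under 0.05, beside 0.983% of all genes. This was Atpaf2, an assembly factor of complex V, at -0.48 (SE 0.19), with an adjusted p of 1.00. Foxred1 differed by -0.45 (SE 0.48), the copper chaperone Cox17 by 0.36 (SE 0.36) and Pet100 by 0.25 (SE 0.25). Of the 15 regulators of mitochondrial biogenesis, with a median of -0.03, the nuclear receptor Esrra differed by -0.45 (SE 0.23), the deacetylase Sirt3 by -0.62 (SE 0.52), Tfe3 by 0.42 (SE 0.22) and Pprc1 by 0.22 (SE 0.24). The 17 mitochondrial chaperones and proteases had a median of -0.01, with Spg7 at -0.50 (SE 0.54), Phb2 at -0.24 (SE 0.20), Hspe1 at 0.15 (SE 0.21) and Clpx at 0.11 (SE 0.40).

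Many of these differences of nuclear genes were smaller without both libraries numbered 3. Cox8a at 0.58, Cox6a1 at 0.39, Tfe3 at 0.36, Atpaf2 at -0.34 and Pprc1 at 0.22 kept most of their difference. Among the respiratory chain subunits, Sdha then differed by -0.01, Ndufv1 by -0.09, Ndufs1 by -0.02, Ndufa3 by 0.10 and Ndufa2 by 0.15. Uqcrh was at 0.07, Atp5j at -0.07, Atp5l at 0.20 and Atpif1 at 0.20, and Cox7b at 0.20 and Atp5c1 at 0.04 had changed sign. Cox7a1 at -0.25 and Uqcrc1 at -0.13 were larger in size than with all libraries. Among the other genes, Tefm then differed by -0.10, Mgme1 by -0.22, Lig3 by 0.11, Taco1 by -0.29, Mrpl45 by -0.06, Mrps35 by 0.17, Sirt3 by -0.10, Esrra by -0.23, Cox17 by 0.14, Pet100 by 0.16 and Phb2 by -0.03. Foxred1 and Spg7 were then at 0.00 after rounding, and Clpx was at 0.40. Polrmt at 0.04 and Tfam at 0.03 had changed sign, and Lrpprc was at -0.02, Tfb2m at 0.09 and Slirp at 0.22. The list medians turned to 0.14 for the regulators of biogenesis, 0.06 for the chaperones and proteases and 0.00 after rounding for the assembly factors.

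Markers of other fibers and cells were set beside these values, and their part in the levels of the mitochondrial mRNAs was not tested. No marker of any list passed an adjusted limma p under 0.05, and the summed levels of every list overlapped between the groups. All 10 markers of slow and oxidative fibers, which hold more mitochondria than fast fibers, had a higher aged mean, and their summed FPKM was 602 to 1766 in young and 1135 to 2861 in aged libraries. At an unadjusted limma p under 0.05, 1 of these 10 was higher, beside 6.77% of all genes. The summed FPKM of 7 macrophage and leukocyte markers was 16.4 to 41.3 in young and 30.0 to 141 in aged muscle, with 3 of 5 tested markers higher at an unadjusted p under 0.05, beside the same 6.77% of all genes, and none after adjustment. The 6 endothelial markers summed to 39.9 to 46.0 FPKM in young and 44.4 to 59.7 in aged muscle. In the same order, the 6 adipocyte markers summed to 175 to 374 and 241 to 369, and the 6 fibroblast markers to 167 to 278 and 129 to 281. Of the fibroblast markers 3 had a higher and 3 a lower aged mean. Among these 6, 1 was lower at an unadjusted limma p under 0.05, Col3a1 (-1.03, SE 0.37), beside 0.983% of all genes.

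At an unadjusted limma p under 0.05, 1 of 2 tested B and plasma cell markers was higher in aged muscle. This was the antibody light chain Igkc (4.14, SE 0.63, adjusted limma p 0.180). In the same direction 6.77% of all genes met that threshold. Of 3 tested Schwann and nerve markers 1 was higher at the same threshold, beside the same 6.77% of all genes. All Schwann and nerve markers in the table summed to 13.8 to 108 FPKM in young and 24.3 to 186 in aged muscle. In the same order, the erythroid markers summed to 142 to 327 and 151 to 610. The smooth muscle markers summed to 38.4 to 132 and 46.2 to 103, and the B and plasma cell markers to 60.2 to 105 and 52.5 to 291. The choice to name Col3a1 and Igkc was made with their values in view. No marker in the table was at 0 in all 10 libraries.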

How the data were processed

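Poly-A RNA of 10 gastrocnemius muscles was sequenced as paired ends after library preparation with a kit that does not mark strand. The authors mapped the reads to mm10 with TopHat2 (also named in the submitters' processing notes) and deposited log2 FPKM for each of 92251 transcripts in each library, with an FPKM of 1 or less given as 0. The program that counted the reads is not given in the sources used here. The methods name a RefSeq gene model, whereas the deposited table lists Ensembl and Vega transcripts, and 233 entries without a name were left out. FPKM keeps no depth, so the depth of each library was recovered from the values of the 37 mitochondrial genes. It was taken as the whole number at which the most of these values were whole reads within 0.05. At the chosen depths 370 of 370 values were whole, but the depths were picked for this, so the count is no separate check. Whether the unit counted is a read or a read pair is not given. Intervals and counting errors cover counting error or the spread between these libraries only.

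Differences were fitted with limma 3.58.1 in R 4.3.3 on the deposited log2 values of 38059 transcripts (mean FPKM at or above 1), and p-values were adjusted by the Benjamini-Hochberg method. Single mRNAs were compared with two-sided exact permutation tests over the libraries, where 252 splits allow no p below 0.00794. Sequences were taken from GENCODE M21 and aligned with blastn 2.17.0+. Young and aged libraries are different mice, but those with the same number deviated from their group means together, since the correlations were 0.131 (number 1), 0.332 (2), 0.695 (3), 0.390 (4) and 0.208 (5), whereas other combinations averaged -0.04 with a range of -0.76 to 0.54, some of them above the same-numbered value of a library, so a fit with the number as a block was run as well. The alternatives were other scalings, filters, pseudocounts and array weights, the thresholds of the study, and fits without single libraries.

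The mRNAs and gene lists were chosen with earlier results of these data known. Named nuclear genes were the 2 with the highest and the 2 with the lowest difference of each of 11 lists among genes above 0 in all libraries, the 6 genes most like the mitochondrial mRNAs, and Polrmt, Tfam, Tfb2m, Tefm, Lrpprc and Slirp.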

Additional observations from a re-analysis of the deposited data

Results flagged for a closer look

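In 50 of 164 groups of 5 libraries, 1 library lay farther from the other 4 than a Dixon test at 95% allows, which chance does in about 1 in 20 groups. Aged library 3 was that library in 36 of them, young library 3 in 13 and young library 2 in 1, and the groups are not independent because the genes share the libraries. The rate of chance does not apply to the nuclear genes, which were named for high or low differences that a library standing apart can itself give.

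Aged library 3 was low for 9 mitochondrial mRNAs, with log2 FPKM of 12.27 for mt-Nd1, 11.03 for mt-Nd2, 11.54 for mt-Nd4, 12.49 for mt-Cytb, 12.93 for mt-Co1, 12.37 for mt-Co3, 11.91 for mt-Atp6, 9.61 for mt-Nd4l and 10.51 for mt-Atp8. Young library 2 was low for mt-Nd3, at 11.15. In aged library 3 the share of mapped reads was 4.88% for the 10 mRNAs, 5.00% for 13 mitochondrial mRNAs, 5.38% for all 37 mitochondrial genes, 1.51% for complex I, 0.657% for complex III and 0.262% for complex V. The same library had 5.16 reads of the 10 mRNAs per 100 nuclear reads, a mt-Co1 share of 24.8% of their reads, a median log2 FPKM of 12.23 for the 10 mRNAs, and a median 3.36 above that of the nuclear subunits.

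Of the upstream and downstream pairs, mt-Atp8 minus mt-Atp6 stood apart at -0.43 in young library 3 and -1.40 in aged library 3, and mt-Co1 minus mt-Ts1 at 0.66 and -1.23. mt-Nd4l minus mt-Nd4 and mt-Nd5 minus mt-Nd6 stood apart in young library 3, at -1.69 and -1.63.

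Among nuclear genes, aged library 3 was low for Ndufv1 (6.16 log2 FPKM), Ndufs1 (5.65), Sdha (3.89), Cox7b (8.15), Atp5c1 (7.80), Tefm (2.01), Sirt3 (0.73), Atpaf2 (2.44), Foxred1 (0.56), Spg7 (2.81) and Mrpl45 (2.07), and high for Ndufa3 (10.03), Cox17 (8.66), Hspe1 (6.73) and Mrps35 (4.95). Young library 3 was low for Sdha (7.42) and Taco1 (4.05), and high for Ndufa3 (8.73), Ndufa2 (8.64), Uqcr10 (9.18), Cox8a (5.25), Atpif1 (5.17), Cox17 (7.41) and Hspe1 (6.39). The part of RNA quality in these departures was not tested.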

How the results depend on the processing

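No mitochondrial mRNA of the 10 was called in any of 21 alternative settings, with a lowest adjusted limma p of 0.239, and 193 of 210 differences were negative. In 15 settings all 10 had a lower aged mean. Their median difference was -0.22 to 0.04 over the alternatives. Under quantile normalization the aged mean was higher by 0.0607 for mt-Atp6, 0.0106 for mt-Co1, 0.112 for mt-Co2, 0.0901 for mt-Co3, 0.0117 for mt-Cytb, 0.0882 for mt-Nd4 and 0.101 for mt-Nd6, and without both libraries numbered 3 by 0.0427 for mt-Co1. With 1 library left out, the difference was -0.232 to 0.00235 for mt-Atp6, -0.591 to 0.218 for mt-Atp8, -0.208 to 0.154 for mt-Co1, -0.387 to 0.0214 for mt-Nd2, -0.161 to 0.00872 for mt-Nd4, -0.530 to 0.266 for mt-Nd4l and -0.536 to 0.204 for mt-Nd5, each highest without aged library 3, and -0.0934 to 0.0266 for mt-Co2, highest without young library 5. The difference of the share of mapped reads was -1.18 to 0.0944 percentage points with 1 library left out. The transcripts called higher in aged muscle were 10 with 1 transcript per gene, 5 with values above 0 in all libraries, 0 with median-of-ratios scaling, 0 with quantile normalization, 11 without both libraries numbered 3, and 0 to 23 with 1 library left out, with 23 without aged library 3, 11 without aged library 5 and 0 without young library 1, 2, 4 or 5 or aged library 1, 2 or 4. Array weights called 1798 higher and 80 lower, among them 1 nuclear subunit, and the thresholds of the study, an unadjusted p and a change of 1 log2 unit, 217 and 35. With the replicate block 0 transcripts were called, and this pairing changed no call of a mitochondrial mRNA, nor, at an adjusted p, of a gene in any list. The cause of these changes was not tested.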

Other observations

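The share of mt-Co1 among the reads of the 10 mRNAs was 31.5, 30.0, 28.5, 30.6 and 31.5% in young libraries 1 to 5 and 32.4, 31.9, 24.8, 32.7 and 34.8% in aged libraries 1 to 5. Apart from the library numbered 3, each aged value was above each young one, a pattern noticed after the values were seen and not tested. The means were 30.4 ± 1.24% and 31.3 ± 3.82% (SD, n = 5 each), and without both libraries numbered 3 they were 30.9 ± 0.734% and 33.0 ± 1.27% (SD, n = 4 each).

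Gm13339, a nuclear copy 96.7% identical to part of mt-Nd2, had 7.93 ± 0.31 log2 FPKM in young and 7.78 ± 0.29 in aged libraries (SD, n = 5 each) and was highest in young library 3, at 8.29, where mt-Nd2 was lowest of the young. Among the tRNA genes the differences ran from -0.65 for mt-Tl1 to 0.83 for mt-Tq. Without both libraries numbered 3 these 2 were -0.36 and 0.64, and without aged library 3 alone they were -0.18 and 0.62.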
